A study of Homo sapiens with 7 samples.

Results

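The ribosomal protein genes were examined in Kasumi-1 cells as a set of 87 genes among the 20136 protein-coding genes on nuclear chromosomes. Members were chosen by symbol alone, as RPL or RPS followed by digits with an optional paralog or stalk ending, or RPSA. Kinases of the RPS6K family, pseudogenes and readthrough transcripts were left out. Of the members, 53 carry an RPL symbol (large subunit) and 34 an RPS symbol, RPSA included (small subunit). FAU, which encodes a ribosomal protein as a fusion to a ubiquitin-like sequence, does not match the symbol rule and was placed with a separate list of translation genes.

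Kasumi-1 is a myeloblast line established from the peripheral blood of a patient with t(8;21) acute myeloid leukemia, and it expresses both wild-type AML1 (Runx1) and the fusion protein AML1-ETO. ChIP-seq was performed in untreated, log-phase cells with antibodies against AML1 (an antibody to the C-terminal region, which is absent from the fusion), ETO (read as AML1-ETO), the corepressor N-CoR, the coactivator p300 and trimethylated lysine 4 of histone H3 (H3K4me3), a mark of transcription initiation. The authors pooled 2 biological replicates of each antibody before peak calling, so that each of the 5 lists is a single set of summits from 1 cell line with no replicate spread and no knockdown or normal-cell comparison. The H3K4me3 list held 19632 summits, the p300 list 11020 and the N-CoR list 10004, while that of AML1-ETO held 18087 and that of AML1 11692. They give positions only, without height, fold or p-value, so read depth behind each summit is unknown here. No difference between gene groups could therefore be tested against replicate error. Shares are given with 95% Clopper-Pearson intervals and medians with exact binomial intervals, which cover counting over genes only.

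A list was scored as present at a gene when a summit lay within 1000 bp of the start of its canonical transcript (GENCODE 44, lifted to GRCh37/hg19). Positions are in bp from that start, negative upstream and positive downstream. Among genes known to mark the lineage, H3K4me3 was present at 5 of 7 myeloblast genes (ELANE, CD34, CD33, SPI1 and PTPRC). MPO and KIT had no H3K4me3 summit but had AML1, AML1-ETO and p300 summits. None of 5 markers of other cells, among them CD3E, ALB, KRT5 and MYOD1, had a summit in any list.

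Ribosomal proteins assemble with ribosomal RNA into the large and small ribosomal subunits, and their genes are transcribed by RNA polymerase II at high and coordinated rates in growing cells. Most of these genes start transcription at a cytosine followed by a run of pyrimidines, the terminal oligopyrimidine (TOP) start, through which translation of their mRNAs responds to growth signals. Many have a very short first exon and a first intron known to carry regulatory sequence, and several host small nucleolar RNAs in their introns. In these 87 genes, 76 had a first exon of at most 100 bp, and 29 contained a snoRNA gene. They were spread over 22 chromosomes, with 12 on chromosome 19.

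The sequences below are the starts of members that had a summit of all 5 lists, read from GRCh37, 5′ to 3′ on the coding strand. Each runs over 30 bases and the capitals mark the first 5 transcribed bases. They are shown because the TOP start is the feature most members share and because these promoters carry every protein measured.
RPL22, chr1:6259646-6259675, minus strand: ctgcgtagttcgctcacctcCCTTTctaac
RPS3A, chr4:152020760-152020789, plus strand: tcgcgcgactcccacttccgCCCTTttggc
RPL37, chr5:40835315-40835344, minus strand: tgatatagcggaagtgccttCTCTTccggt
RPL18, chr19:49122426-49122455, minus strand: cgcccaccccagcccgttctCTCTTtccgg
RPL22L1, chr3:170587975-170588004, minus strand: gaccgcgcggccgtagcttcCTCTCtgctc
RPL36AL, chr14:50087335-50087364, minus strand: tccgcctgtttcttccctttCCTGTtaggc
RPL15, chr3:23958603-23958632, plus strand: aggagcccaaaaggcattgtGGGAGtacag

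RPL22, RPS3A, RPL37, RPL18 and RPL22L1 start with C and 4 further pyrimidines. RPL36AL starts with C but has a G within the first bases, and the canonical start of RPL15 is a run of purines. Over the whole set, a C with 4 further pyrimidines was found at 60 of 87 starts (69%, interval 58.1 to 78.5%). The same letters stood at 5.04% of the other genes with H3K4me3 and at 6.41% of 78 mitochondrial ribosomal protein genes, which are encoded in the nucleus and serve the mitochondrial ribosome.

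Nearly all ribosomal protein genes carried H3K4me3 together with p300. H3K4me3 was present at 82 of 87 members (94.3%, interval 87.1 to 98.1%), where 58.9% of all protein-coding genes had it. p300 was present at 81 members (93.1%, interval 85.6 to 97.4%), against 34.2% of all protein-coding genes and 56.6% of the 11777 other genes with H3K4me3. Within 1000 bp, the intervals of the members and of the comparison genes did not overlap for either list. Within 250 bp, H3K4me3 was present at 18.4% of members (interval 10.9 to 28.1%) and 22.5% of other protein-coding genes. RPL39L was the sole member with H3K4me3 and without p300.

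Housekeeping gene sets of other kinds also carried p300 at most starts. p300 was present at 88.5% of the mitochondrial ribosomal protein genes (interval 79.2 to 94.6%), at 82.1% of 39 proteasome subunit genes (66.5 to 92.5%) and at 88.9% of 18 other genes with a TOP start, mainly translation factors (65.3 to 98.6%). These intervals overlap that of the ribosomal protein genes. Among 30 ribosome assembly factors, which process ribosomal RNA and build the subunits, p300 was present at 63.3% (43.9 to 80.1%), an interval that lies below that of the ribosomal proteins themselves.

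The runt-domain proteins and N-CoR occupied a part of the set. AML1 was present at 36 members (41.4%, interval 30.9 to 52.4%), beside 14.8% of all protein-coding genes and 23.5% of the other genes with H3K4me3. N-CoR was present at 27 members (31%, interval 21.5 to 41.9%), beside 10.1% of all protein-coding genes and 15.9% of those with H3K4me3. AML1-ETO was present at 28 members (32.2%, interval 22.6 to 43.1%), beside 18.4% and 28.7%. The AML1 and N-CoR shares stood above those of other H3K4me3 genes beyond counting error, whereas the AML1-ETO share could not be told apart from them. Among sets of like function, AML1 was at 38.9% of the other TOP-start genes, 33.3% of the proteasome genes and 30.8% of the mitochondrial ribosomal protein genes, and N-CoR at 27.8%, 17.9% and 24.4%, all with intervals that overlap those of the members. The ribosome assembly factors had AML1 at 20% (7.71 to 38.6%) and N-CoR at 20%, intervals that overlap as well. The calls against other H3K4me3 genes varied with the limits used. Within 250 bp of the start, AML1-ETO was present at 29.9% of members (interval 20.5 to 40.6%) and 17.5% of the others, and in the first 50% of each list AML1 was present at 18.4% (10.9 to 28.1%) beside 12.2% and N-CoR at 9.2% (4.05 to 17.3%) beside 5.17%, within counting error.

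Because p300 was so frequent in the set, the shares were also taken over genes with both H3K4me3 and p300, a comparison chosen after the data were seen. AML1 was then present at 43.2% of 81 members (interval 32.2 to 54.7%) and 34.4% of 6660 other genes. N-CoR was present at 33.3% (23.2 to 44.7%) and 24.6%, and AML1-ETO at 33.3% (23.2 to 44.7%) and 36.8%. In this comparison each interval of the members contained the share of the other genes, so that no difference was detectable for any of the 3 proteins.

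**Figure D1:**
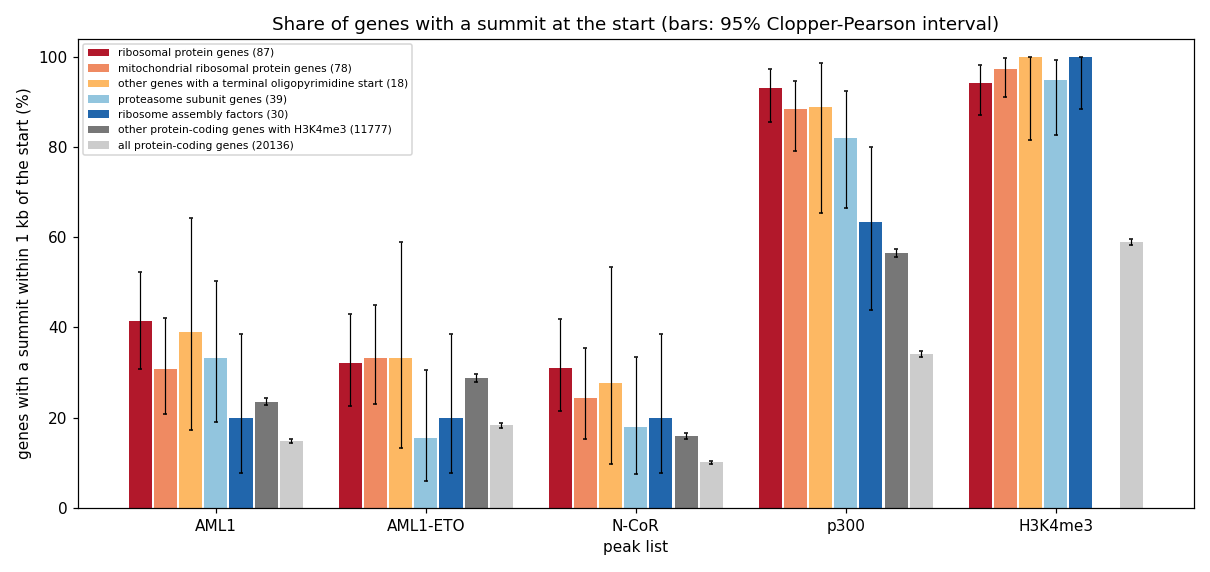
Share of genes (%, vertical axis) with a summit within 1 kb of the start for each of the 5 lists (horizontal axis), in ribosomal protein genes, 4 other gene sets, the other genes with H3K4me3 and all protein-coding genes. Bars are shares and whiskers 95% Clopper-Pearson intervals, and numbers in parentheses are genes per set; p300 reaches 93.1% of the ribosomal protein genes beside 56.6% of other genes with H3K4me3, which have no H3K4me3 bar because the mark defines them.

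Large and small subunit genes did not differ beyond counting error. AML1 was present at 24 of 53 RPL genes (45.3%, interval 31.6 to 59.6%) and 12 of 34 RPS genes (35.3%, 19.7 to 53.5%). AML1-ETO was present at 18 and 10, and N-CoR at 18 and 9, respectively. p300 was present at 50 RPL genes (94.3%) and 31 RPS genes (91.2%). The overlapping intervals do not show that the subunits were equal, as the set is small.

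Of the 3 genes of the ribosomal P stalk, the protrusion that recruits elongation factors, all had p300 and H3K4me3. RPLP0 had AML1 at -61 bp, RPLP2 had AML1 at -465 bp and AML1-ETO at -88 bp, and RPLP1 had neither. Among 16 members that are known to be mutated in Diamond-Blackfan anemia, an inherited failure of red cell production, AML1 was present at 9 (56.2%, interval 29.9 to 80.2%), AML1-ETO at 6 (37.5%, 15.2 to 64.6%), N-CoR at 7 (43.8%, 19.8 to 70.1%) and p300 at 15. These intervals contain the shares of the whole set. In this list RPS7 and RPL31 had AML1 (-75 and -13 bp) with N-CoR (-52 and -58 bp), and RPS19 had AML1-ETO at -67 bp and N-CoR at -427 bp.

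Of the 87 members, 81 carried p300 with H3K4me3, alone or with 1 to 3 further proteins. By number of lists, 5 members had none, none had 1, 30 had 2, 24 had 3, 18 had 4 and 10 had all 5. Of the 82 members with H3K4me3, 52 had at least 1 of AML1, AML1-ETO and N-CoR (63.4%), and the other 30 had none of the 3 (36.6%, interval 26.2 to 48%). None of the 3 was found at 57.6% of the other genes with H3K4me3, a share above that interval, and at 43.6% of those that also have p300, a share within it.

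The 30 members with p300 and H3K4me3 alone included RPS27A, RPL37A, RPL32, RPSA, RPL35A, RPL34, RPS23, RPS14, RPL26L1, RPL7L1, RPL7, RPL30, RPL27A, RPS3, RPL6, RPL21, RPS27L, RPLP1, RPS2, RPS15A, RPL13, RPL26, RPL23A, RPL17, RPS15, RPL28, RPS21, RPS4X and RPL39. Both subunits are found among them. Their p300 summits had a median position of 70 bp (interval 44 to 94), and those of the 51 members with p300 and at least 1 of the 3 proteins a median of 51 bp (19 to 80). These intervals overlap.

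AML1 with N-CoR and without AML1-ETO was more frequent in the set than in other genes by the intervals. This combination was picked among all those of AML1, AML1-ETO and N-CoR after the values were seen. It was not counted in the mitochondrial ribosomal protein, TOP-start or proteasome genes. It was found at 8 members (9.76%, interval 4.31 to 18.3%), beside 1.95% of the other genes with H3K4me3 and 3.3% of those with both H3K4me3 and p300. The 8 members were RPL5, RPS7, RPL31, RPL29, RPS20, RPS25, RPL38 and RPL3. RPL5 is a large subunit protein that binds 5S ribosomal RNA, and RPS7 and RPS25 belong to the small subunit. All of AML1, AML1-ETO and N-CoR were found together at 10 members (12.2%, interval 6.01 to 21.3%), beside 6.96% and 11.1% of the same comparison genes, shares that its interval contains.

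**Figure D2:**
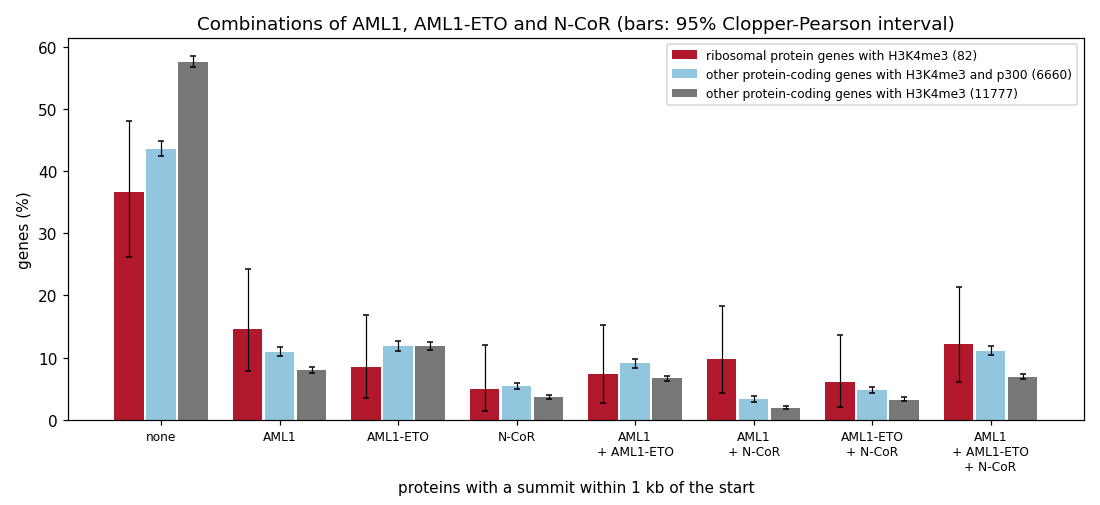
Share of genes (%, vertical axis) with each combination of AML1, AML1-ETO and N-CoR within 1 kb of the start (horizontal axis), in ribosomal protein genes with H3K4me3, other genes with H3K4me3 and p300, and all other genes with H3K4me3. Whiskers are 95% Clopper-Pearson intervals; AML1 with N-CoR alone stands at 9.76% of the ribosomal protein genes beside 3.3% and 1.95%, and the other combinations overlap those of the genes with p300.

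The 10 members with all 5 lists included RPL22, RPL15, RPL22L1, RPS3A, RPL37, RPL10A, RPL36AL, RPL23 and RPL18. RPL22 and its paralog RPL22L1 encode a large subunit protein that also binds other RNAs, and RPL10A and RPL23 are large subunit core proteins. At RPL22 the AML1 summit was at -7 bp, AML1-ETO at -46 bp, N-CoR at -87 bp and p300 at 92 bp. At RPL10A the AML1 summit was at -106 bp, AML1-ETO at -112 bp and N-CoR at -110 bp, with p300 at 111 bp. At RPS3A all 4 proteins were upstream, with AML1 at -199 bp, AML1-ETO at -197 bp, N-CoR at -106 bp and p300 at -115 bp. At RPL22 and RPL10A the 3 proteins thus stood before the start and p300 after it, and at RPS3A all stood before it.

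The p300 summit lay inside the transcribed region at most ribosomal protein genes. Its median position was 61 bp (interval 43 to 80) over the 81 members, beside -24 bp (-28 to -20) over 6660 other genes with H3K4me3. It was downstream of the start at 62 of 81 members (76.5%, interval 65.8 to 85.2%) and at 42.8% of the other genes. The value depended on the start chosen, at 13 bp (6 to 37) beside -9 bp in other genes with the nearest of any annotated start and 112 bp (90 to 122) beside 17 bp with the 5′ end of the gene record. In bins of 50 bp, the fullest bin of the members was the one from 50 to 100 bp, with 26 genes. The 5 members whose p300 summit was nearest the start were RPL36 at 1 bp, RPL26L1 and RPL10 at -3 bp, RPLP1 at -4 bp and RPL5 at 7 bp.

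RPL genes had a median p300 position of 78 bp (interval 51 to 94) and RPS genes one of 32 bp (-35 to 71), intervals that overlap. The TOP-start genes outside the set had a median of 86 bp (-22 to 123), with 12 of 16 summits downstream (75%, 47.6 to 92.7%), above the share in all other genes. These include the elongation factor gene EEF1A1, with p300 at 97 bp, and EIF4B at 96 bp. The mitochondrial ribosomal protein genes had a median of 13 bp (-33 to 41), the proteasome genes -24.5 bp (-57 to 51) and the assembly factors -32 bp (-331 to 58). The interval of the ribosomal protein genes lies above that of the mitochondrial ribosomal protein genes and overlaps those of the other sets named here.

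The p300 position was also taken by the letters at the start and by the length of the first exon. Other genes with C and 4 pyrimidines at the start had p300 at a median of -13 bp, with 45.7% downstream (interval 40.5 to 51%), and other genes with a first exon of at most 100 bp had it at -27 bp, with 42.6% downstream (40.2 to 45.1%). Within the set, members with the pyrimidine start had a median of 52 bp and those without it 83.5 bp (interval 13 to 118). In members with a first exon of at most 100 bp, 57 of 72 p300 summits were downstream (79.2%, 68 to 87.8%), and in those with a longer one, 5 of 9 (55.6%, 21.2 to 86.3%). The first exon of the members with p300 had a median length of 42 bp, beside 170.5 bp for other genes. The p300 summit lay beyond the end of the first exon at 47 of 81 members (58%), beside 9.95% of all other genes. Among genes with a first exon of at most 100 bp, the shares were 63.9% of members and 25.1% of other genes. These were not matched in length, as their median first exons were 38.5 bp and 67 bp.

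**Figure D3:**
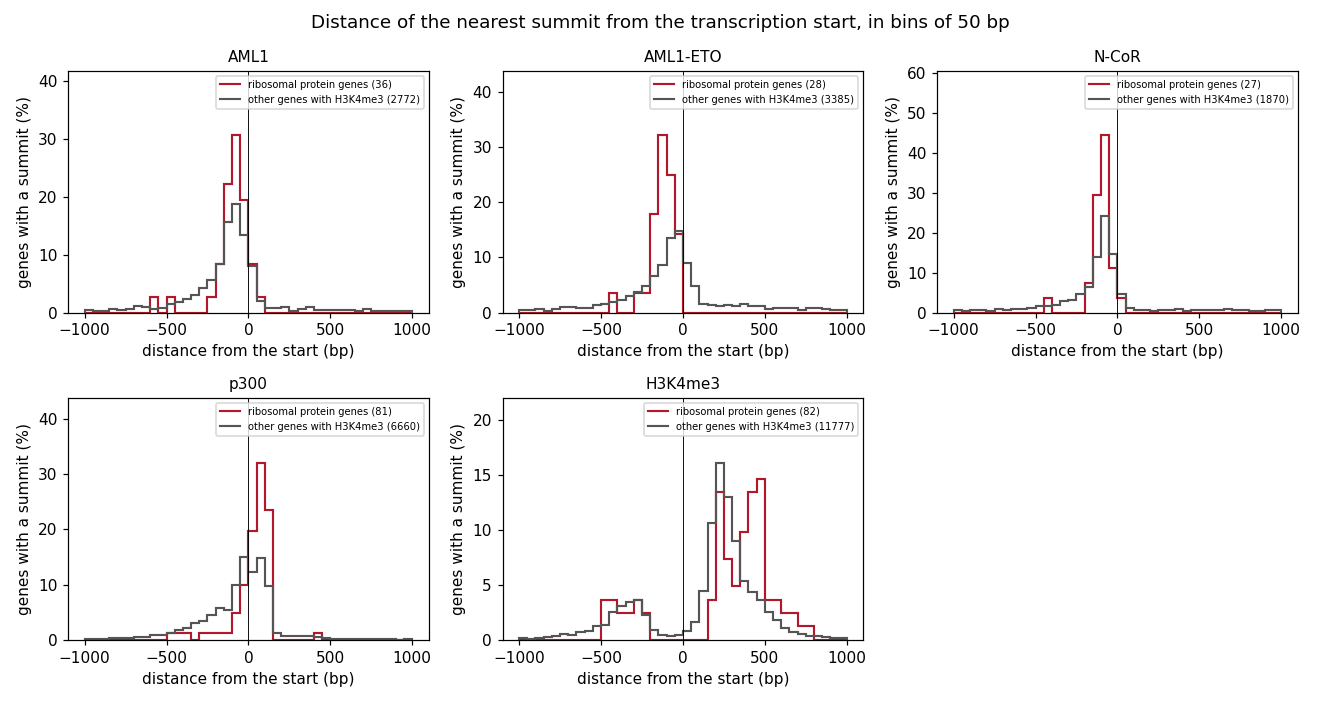
Distribution of the nearest summit around the transcription start for each list, in bins of 50 bp (horizontal axis, bp, downstream positive), as the share of genes with a summit (%, vertical axis; scales differ between panels), in ribosomal protein genes (red) and other genes with H3K4me3 (gray). Red p300 summits gather downstream, with 26 of 81 between 50 and 100 bp, while AML1, AML1-ETO and N-CoR gather upstream in both groups.

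AML1, AML1-ETO and N-CoR lay on the other side of the start. AML1 had a median of -82.5 bp (interval -109 to -54), and 4 of 36 summits were downstream. AML1-ETO had a median of -108 bp (-150 to -81), and 0 of 28 summits were downstream, which allows a share of up to 12.3%. N-CoR had a median of -85 bp (-112 to -58), with 1 of 27 downstream, at RPL22L1. In the other genes with H3K4me3 the medians were -98, -62 and -87 bp, so AML1 and N-CoR stood where they stood elsewhere, and AML1-ETO stood farther upstream than in those genes, where 31.1% of its summits were downstream. Among the smaller sets, AML1-ETO medians were -140 bp in the other TOP-start genes and -162.5 bp in the proteasome genes. Each of these had 0 of 6 summits downstream. The mitochondrial ribosomal protein genes had a median of -64.5 bp (-152 to -9), with 5 of 26 summits downstream. The assembly factors had one of -57 bp (-354 to 525), with 2 of 6 downstream. With the 5′ end of the gene record as start, the AML1-ETO median of the members was -67 bp (interval -133 to -13). That of the other genes was -19 bp, which the interval contains.

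The AML1 summits nearest the start included those of RPL22 (-7 bp), RPL31 (-13 bp), RPL14 (-21 bp), RPS25 (-24 bp), RPL22L1 (-27 bp) and RPL7A (-28 bp). The 4 downstream of it included those of RPL39L (36 bp), RPL36A (45 bp) and RPS26 (60 bp). For AML1-ETO they included RPL39L (-1 bp), RPL37 (-30 bp), RPL22 (-46 bp), RPL18 (-58 bp), RPL12 (-60 bp) and RPL24 (-62 bp). For N-CoR they included RPL36 (-30 bp), RPL22L1 (38 bp), RPL37 (-40 bp), RPL5 (-43 bp), RPS7 (-52 bp) and RPL15 (-55 bp). RPL22, RPL37, RPL22L1 and RPL39L each stand in at least 2 of these lists, and all but RPL39L are among the 10 members with every list.

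**Figure D4:**
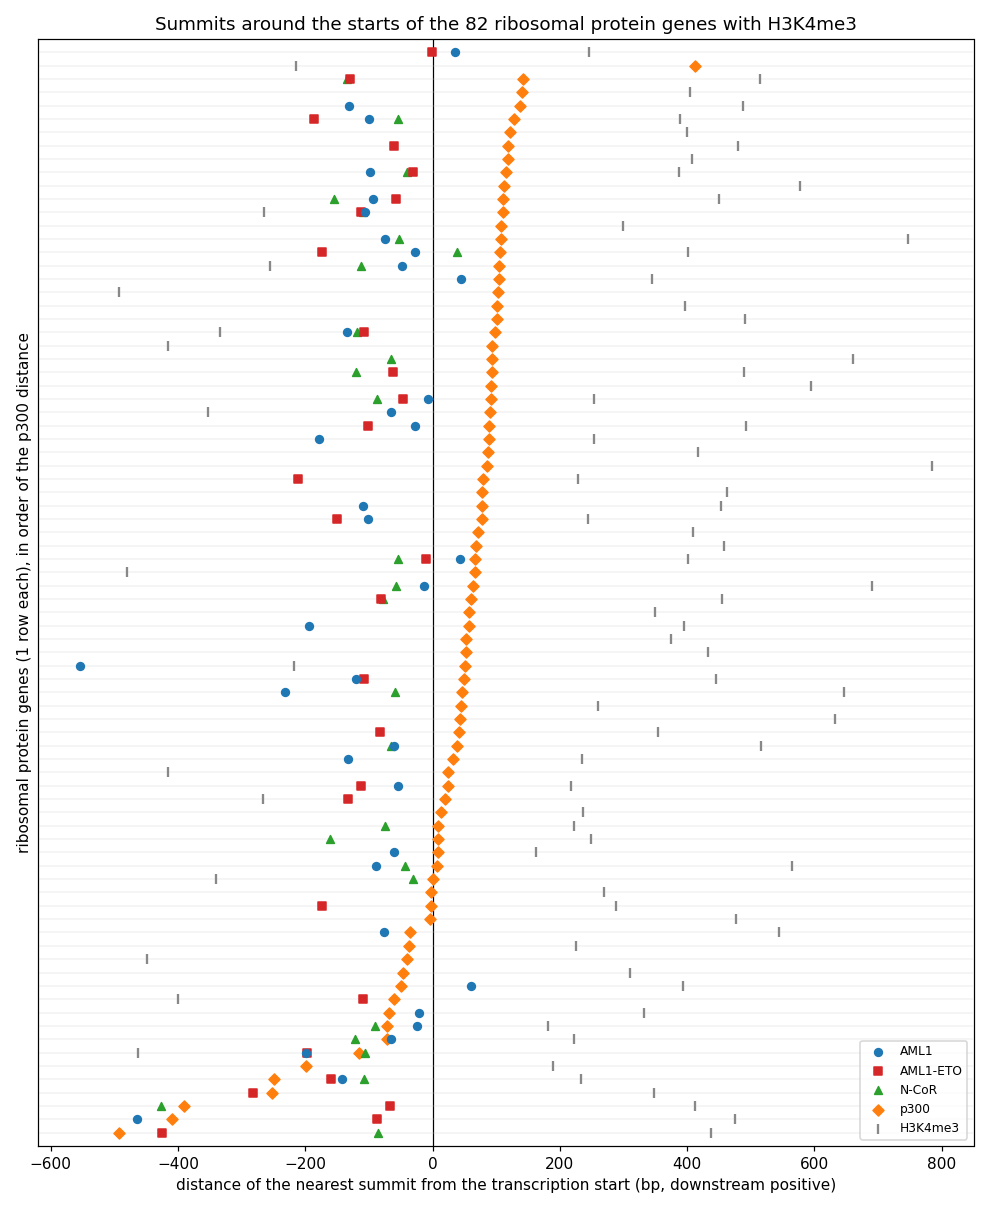
Position of the nearest summit of each list (symbols; horizontal axis, bp from the transcription start, downstream positive) at each of the 82 ribosomal protein genes with H3K4me3 (unlabeled rows, in order of the p300 position). Orange p300 summits lie downstream at 62 of 81 genes, and the AML1-ETO squares all lie upstream.

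How often p300 summits coincided with those of the other proteins depended on the distance allowed. Counting summits under 100 bp apart as shared, AML1 and p300 shared a position at 14 of the 35 members that had both (40%, interval 23.9 to 57.9%), AML1-ETO and p300 at 7 of 27 (25.9%, 11.1 to 46.3%) and N-CoR and p300 at 8 of 27 (29.6%, 13.8 to 50.2%). With under 200 bp as shared, the counts became 25, 19 and 20. At under 100 bp, the shares in the other genes with H3K4me3 were 50.7%, 54.4% and 65.2%. The separation was beyond counting error for AML1-ETO and N-CoR and not for AML1. Among themselves, AML1 and AML1-ETO shared a position at 14 of 16 members (interval 61.7 to 98.4%). AML1 and N-CoR did so at 17 of 18 (72.7 to 99.9%), and AML1-ETO and N-CoR at 12 of 15 (51.9 to 95.7%). In the other genes with H3K4me3 the shares were 82.9%, 80.3% and 79.9%, which these intervals contain. With under 50 bp as shared, the member counts were 9, 8 and 8.

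The order along the gene was also regular. AML1 was upstream of p300 at 30 of 35 members (85.7%, interval 69.7 to 95.2%), AML1-ETO at 23 of 27 (85.2%, 66.3 to 95.8%) and N-CoR at 24 of 27 (88.9%, 70.8 to 97.6%). In the other genes the shares were 59.2%, 52.3% and 57.5%. The median distance from the AML1 summit to the p300 summit was 133 bp in the members and 30 bp in the others, that from AML1-ETO 152 and 7 bp, and that from N-CoR 122 and 16 bp.

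At some members p300 stood beside the other proteins, upstream of the start. At RPS20 p300 was at -72 bp and AML1 at -66 bp. At RPS25 p300 was again at -72 bp, with N-CoR at -90 bp. RPS20 and RPS25 encode small subunit proteins, and both were chosen after their values were seen.

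H3K4me3, whose summits mark nucleosomes beside the start, lay farther downstream in the set than in the other genes that have it. Its median position was 364.5 bp (interval 260 to 404), beside 227 bp (224 to 230) in those genes and 346 bp (257 to 443) in the other TOP-start genes, whose interval overlaps. The mitochondrial ribosomal protein genes had 240 bp (215 to 278), the proteasome genes 272 bp (216 to 307) and the assembly factors 270.5 bp (223 to 313). These intervals also overlap that of the members. H3K4me3 was downstream at 67 of 82 members (81.7%) and at 76.8% of the other genes that have it. These shares differ within counting error. The difference in the median depended on the start chosen. With the 5′ end of the gene record the median was 393.5 bp (interval 283 to 434) in the members and 247 bp in other genes, whereas with the nearest of any annotated start it was 129 bp (1 to 184) and 138 bp. Within 500 bp it was 305 bp (245 to 389) and 222 bp. At 26 of 87 members (29.9%) there were H3K4me3 summits on both sides of the start, as at 28.4% of the other genes.

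The lists are numbered, and the numbers of the p300 and H3K4me3 summits at ribosomal protein genes were low. What the order of the lists stands for is not given in the sources used here, so the numbers are reported as they are and are not read as heights. The p300 summits of the 81 members had a median number of 682 among 11020, or 6.19% of the way into the list, beside 44.3% for other genes with H3K4me3. Of them, 50 (61.7%, interval 50.3 to 72.3%) were in the first 10% of the list, where 10.4% of the summits of the other genes were. H3K4me3 summits behaved alike, with 45 of 82 (54.9%, 43.5 to 65.9%) in the first 10%, beside 17.4%.

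RPL8, which encodes a core protein of the large subunit, had p300 summit number 13, and RPL29 number 33. RPL32 had H3K4me3 summit number 2. RPL41 stood at the other end, with p300 summit number 9992. These 4 were chosen after their values were seen. The AML1, AML1-ETO and N-CoR summits of the members were not early in their lists, at medians of 57.1%, 58.3% and 66% of the way, beside 57.3%, 60.8% and 68.8% for other genes.

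The p300 position was also taken by place in the list. Of the members with p300 in the first 10% of its list, 42 of 50 had it downstream (84%, interval 70.9 to 92.8%), and of the 31 with a later number, 20 (64.5%, 45.4 to 80.8%). Of 694 other genes with p300 in the first 10%, 38.5% had it downstream (34.8 to 42.2%), and of the 5966 with a later number, 43.3% (42 to 44.5%). In those 694 genes AML1 was present at 50.6%, AML1-ETO at 47% (interval 43.2 to 50.8%) and N-CoR at 50.9%, beside 42% (28.2 to 56.8%), 32% (19.5 to 46.7%) and 44% (30 to 58.7%) of the 50 members. The member interval for AML1-ETO ends just below the share in the other genes, although the 2 intervals overlap, and those for AML1 and N-CoR contain it.

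**Figure D5:**
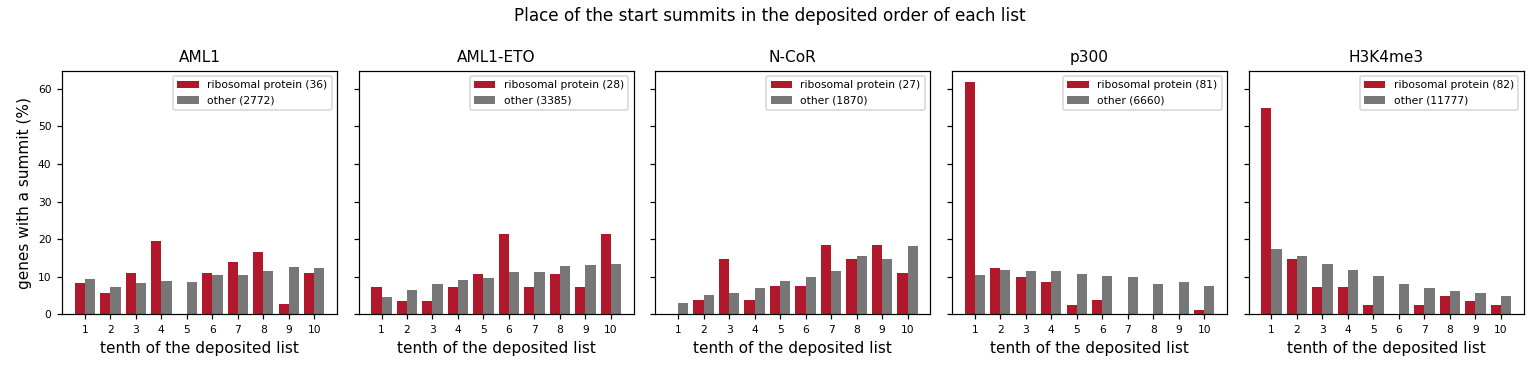
Place of start summits in the deposited order of each list: share of genes with a summit (%, vertical axis) in 10 equal parts of the list (horizontal axis, 1 is the first), in ribosomal protein genes (red) and other genes with H3K4me3 (gray). For p300 61.7% and for H3K4me3 54.9% of the ribosomal protein genes fall in the first 10%, and no such rise is seen for AML1, AML1-ETO and N-CoR.

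Short sequence motifs were then counted on both strands of the 300 bp from 250 bp before to 50 bp after each start. The runt-domain core TGTGGT was found at 14 of 87 members (16.1%, interval 9.09 to 25.5%), beside 7.74% of other genes with H3K4me3 and 10.8% of all protein-coding genes, the second of which its interval contains. The ETS core AGGAAG was found at 54 (62.1%, 51 to 72.3%), beside 30.8% and 32.6%, and the ETS form CCGGAA at 49 (56.3%, 45.3 to 66.9%), beside 32.1% and 22.6%. Both ETS forms hold GGAA, after A in the first and after C in the second, so that a single GGAA counts for one of them alone. GAGGAA, a form of the site of the ETS factor PU.1 that can overlap AGGAAG, was found at 33 (37.9%, 27.7 to 49%), beside 26.1% and 27.2%. GGGCGG, the Sp1 box, was found at 58.6% of the members (47.6 to 69.1%), fewer than the 77.5% of other genes with H3K4me3 and within counting error of the 60.9% of all protein-coding genes. The mitochondrial ribosomal protein genes had CCGGAA at 60.3% and GGGCGG at 60.3%, shares like those of the members, while they had AGGAAG at 29.5% (19.7 to 40.9%) and TGTGGT at 6.41% (2.11 to 14.3%). The other TOP-start genes had CCGGAA at 50%, GGGCGG at 77.8%, AGGAAG at 22.2% (6.41 to 47.6%) and TGTGGT at 16.7% (3.58 to 41.4%), near the share of the members. The median GC content was 60% in the members with H3K4me3 and 67% in the other genes that have it, and the part of base composition in these counts was not tested.

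Few of the runt-domain summits held the runt-domain letters. In the 100 bp around the summit, TGTGGT was found at 6 of 36 AML1 summits of the members (16.7%, interval 6.37 to 32.8%), beside 13.6% in other genes with H3K4me3, and at 3 of 28 AML1-ETO summits (10.7%, 2.27 to 28.2%), beside 10.3%. Members with TGTGGT in the promoter had AML1 at 9 of 14 and AML1-ETO at 8 of 14. Those without it had AML1 at 27 of 68 and AML1-ETO at 20 of 68. The intervals, 35.1 to 87.2% and 28 to 52.3% for AML1, overlap.

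The upstream part of 3 AML1-ETO windows of members with every list is shown because these are the ones among 10 in which a runt-domain or ETS core was found. The capitals mark ACCACA, which is TGTGGT on the other strand, in RPL22L1 and RPL18, and AGGAAG in RPL37.
RPL22L1, chr3:170588109-170588208, minus strand: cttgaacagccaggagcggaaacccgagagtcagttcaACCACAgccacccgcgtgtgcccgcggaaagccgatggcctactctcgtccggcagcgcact
RPL18, chr19:49122444-49122543, minus strand: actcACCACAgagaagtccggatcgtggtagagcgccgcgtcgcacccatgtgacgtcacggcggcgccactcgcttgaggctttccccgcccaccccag
RPL37, chr5:40835325-40835404, minus strand: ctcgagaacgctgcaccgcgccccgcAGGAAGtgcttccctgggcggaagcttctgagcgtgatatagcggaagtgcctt

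AGGAAG was found at 1 of 28 AML1-ETO summits of the members (3.57%, interval 0.0904 to 18.3%), beside 17.6% in other genes with H3K4me3, which the interval contains. The PU.1 form GAGGAA was found at 0 of these 28 (interval 0 to 12.3%), beside 12.7%, just above the interval. CCGGAA was found at 12 of 27 N-CoR summits (44.4%, 25.5 to 64.7%), beside 25.5%, at the bound of the interval. The E-box CACGTG was found at 1 of 36 AML1 summits (2.78%, 0.0703 to 14.5%), beside 16%. GGGCGG was found at 10 of 81 p300 summits (12.3%, 6.08 to 21.5%), beside 28.3%. A match of these letters describes the sequence and is not a binding site.

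Reading the p300 windows in the first introns of the members brought up the letters GCCATC, which were then counted and so were chosen after the data were seen. They were found at 22 of 81 p300 summits of the members (27.2%, interval 17.9 to 38.2%) and at 6.34% of the p300 summits of other genes with H3K4me3. At the AML1 summits of the members they were found at 2 of 36 and at the H3K4me3 summits at 2 of 82. Over the 300 bp promoters they were found at 28.7% of members (19.5 to 39.4%) and 13.2% of all protein-coding genes, but also at 42.3% of the mitochondrial ribosomal protein genes (31.2 to 54%) and 50% of the other TOP-start genes (26 to 74%), so that over this window they are not particular to the members. AAGATGGCG, a form of the site of the zinc finger factor YY1 that holds GCCATC on its other strand, was found at 0 of the 81 p300 summits and at 1.85% of those of other genes.

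Windows of 5 such introns with low p300 numbers are shown, picked because they hold GCCATC (in capitals), since the letters stand within the part of the gene where most members had p300. The windows of RPS7, RPS15 and RPL31, with p300 numbers in the same range, lack these letters. All bases lie in the first intron of the canonical transcript.
RPL29, chr3:52029757-52029856, minus strand: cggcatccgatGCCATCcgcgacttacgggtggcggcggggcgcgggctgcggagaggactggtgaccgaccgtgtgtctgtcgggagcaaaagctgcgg
RPL13, chr16:89627126-89627225, plus strand: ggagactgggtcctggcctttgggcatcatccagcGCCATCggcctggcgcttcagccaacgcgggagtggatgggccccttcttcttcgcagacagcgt
RPL15, chr3:23958701-23958800, plus strand: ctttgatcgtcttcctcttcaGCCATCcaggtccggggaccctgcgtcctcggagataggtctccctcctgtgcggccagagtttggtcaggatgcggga
RPL6, chr12:112847268-112847367, minus strand: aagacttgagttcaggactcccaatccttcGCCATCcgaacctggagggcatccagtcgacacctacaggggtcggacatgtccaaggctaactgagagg
RPL17, chr18:47018717-47018816, minus strand: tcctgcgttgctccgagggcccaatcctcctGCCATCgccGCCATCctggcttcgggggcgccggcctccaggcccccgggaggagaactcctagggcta

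Among these, RPL13, RPL6 and RPL17 had p300 and H3K4me3 alone, RPL29 also had AML1 (-48 bp) and N-CoR (-112 bp), and RPL15 had every list. RPL17 holds the letters at 2 places. The p300 summits of RPL29, RPL13, RPL15, RPL6 and RPL17 were at 105, 86, 128, 92 and 69 bp.

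The 5 members with no summit in any list included RPL10L, RPL3L, RPS4Y1 and RPS4Y2. How reads that map to several places were treated is not given in the sources used here, so at members with near-identical copies a missing summit cannot be told apart from reads left out. RPL10L and RPL3L are paralogs known for expression in testis and in muscle, and RPS4Y1 and RPS4Y2 are the Y-linked copies of RPS4X. RPS4X itself had p300 at 141 bp and H3K4me3 at 404 bp. RPL39L, a paralog expressed in testis and in some tumors, had H3K4me3 at 246 bp, AML1 at 36 bp and AML1-ETO at -1 bp, without p300 or N-CoR within 1000 bp. The other paralogs with an L or L1 ending all had p300, at -249 bp in RPL36AL, 106 bp in RPL22L1, 13 bp in RPS27L, -3 bp in RPL26L1 and 412 bp in RPL7L1.

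Away from the starts, 28 AML1-ETO summits lay between 1 and 10 kb from a member start. At 7 of these, AML1 and N-CoR summits lay under 100 bp away, beside RPS14, RPL7A, RPL17, RPL36 and RPS9, and 4 of the 7 also had p300. The share, 25% (interval 10.7 to 44.9%), was within counting error of the 29.2% of 2894 AML1-ETO summits equally far from a start of another gene with H3K4me3 and of the 27.4% of all 18087. Upstream of RPS14, a small subunit gene of chromosome 5q known for its loss in myelodysplastic syndrome, AML1 was at -4574 bp, AML1-ETO at -4553 bp, N-CoR at -4517 bp and p300 at -4506 bp. A further site there had AML1-ETO at -7583 bp with AML1 and N-CoR and without p300. The RPS14 start was the nearest protein-coding start to both sites, while RPS14 had none of AML1, AML1-ETO and N-CoR at the start itself.

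Inside RPS9 a site of all 4 proteins had AML1-ETO at 7348 bp. At RPL17 and RPL36 the sites lay 26 bp from the start of C18orf32 and 119 bp from that of MICOS13, so they stand at promoters of neighboring genes. The 2 sites near RPL7A, with AML1-ETO at -7756 and -6297 bp, lay nearer to the start of SURF6. Other starts also stood near those of the members, as 18 members had another protein-coding start within 1000 bp, among them RPL15 (NKIRAS1), RPL36AL (MGAT2) and RPL18 (SPHK2). At RPS10, RPL17 and RPL36A, which are among the 18, the other start belongs to a readthrough gene named after the member and is no separate neighbor. AML1-ETO was present at 9 of these 18 (50%, interval 26 to 74%) and at 27.5% of the other 69 members (17.5 to 39.6%), the latter beside 28.8% of comparison genes without a neighboring start. Without those 18 members, p300 had a median position of 58 bp (interval 32 to 80), and 49 of 63 summits were downstream.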

How the data were processed

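ChIP-seq libraries of Kasumi-1 cells were aligned by the authors to GRCh37 (hg19) with Bowtie 0.12.8, and peaks were called with MACS2 2.0.10.20131216 at p of 1e-20 on 2 pooled replicates, as the study's methods and the submitters' processing notes state. CASAVA 1.6 is also named there. The deposited files hold positions only, as intervals of 100 bp centered on summits, with a name that carries a list number and no score. The summit was taken as the interval start plus 50. Peak names in the N-CoR list begin as those of AML1-ETO do, and those in the p300 and H3K4me3 lists as those of AML1 do; lists were assigned by the sample each belongs to. The H3K27me3 sample and the input control are not used here.

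Genes and canonical starts came from GENCODE 44 lifted to GRCh37. The nearest summit within 1000 bp was taken, on simulated data first, where 600 of 600 planted summits were recovered among 2000 starts. With 1 pooled list per antibody no test was run, and intervals are 95% Clopper-Pearson or exact binomial for medians. Python 3.11.15, numpy 2.4.6, scipy 1.17.1 and pysam 0.24.0 were used, and figures were drawn with matplotlib 3.10.9. Alternatives were the window, the choice of start, the distance for shared summits, parts of each list, and sets without paralogs, chromosomes 8 and 21 or neighboring starts. Named genes were, by rule, up to 12 members per list nearest the start for AML1, AML1-ETO and N-CoR, the 5 nearest for p300, members with none or all of the lists or without H3K4me3, and up to 4 examples from other lists. Members outside that rule are given for complete groups, sequences or values seen. The members and gene lists were chosen with earlier results of these data known. Some genes of the set and of the other lists are counted but not reported here by name.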

Additional observations from a re-analysis of the deposited data

How the results depend on the processing

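Of 87 alternative values, 63 stayed within the interval or limit of the reported one and 23 moved. With another window, start or part of a list, the other genes were those with an H3K4me3 summit under that same setting. The members were not limited in this way. For H3K4me3 shares, all other protein-coding genes were the comparison. Within 250 bp, H3K4me3 was present at 18.4% of members and 22.5% of other genes, which turned the direction, since its summits lie farther from the start (median then 224 bp); within 500 bp its share was 80.5%. With the 5′ end of the gene record as start, H3K4me3 was present at 85.1%, and medians were -67 bp for AML1-ETO, -52 bp for N-CoR and 112 bp for p300 (other genes -19, -48 and 17 bp). With any annotated start, medians were -79.5 bp for AML1-ETO, 13 bp for p300 and 129 bp for H3K4me3 (other genes -31, -9 and 138 bp), so p300 stayed downstream but nearer and H3K4me3 was no longer farther downstream than in other genes. Without paralogs, p300 and H3K4me3 were each present at 98.7%. In the first 50% of each list, AML1 was present at 18.4%, AML1-ETO at 10.3% and N-CoR at 9.2% of members (other genes 12.2, 12.6 and 5.17%), so that all 3 were within counting error. Members with p300 later than the first 10% of its list had a median of 42 bp. With under 50 bp as shared, counts were 9 for AML1 and AML1-ETO, 8 for AML1 and N-CoR, 5 for AML1 and p300, 3 for AML1-ETO and p300 and 4 for N-CoR and p300, and with under 200 bp the last 3 were 25, 19 and 20. The share of members was above that of the comparison genes in 43 of 48 share alternatives. This count pools all 5 lists, and not all of these differences were beyond counting error. Apart from H3K4me3 within 250 bp, the exceptions were all of AML1-ETO. They were any annotated start (34.5% beside 34.6%) and no neighboring starts (27.5% beside 28.8%). The first 50% of the list (10.3% beside 12.6%) and genes with both H3K4me3 and p300 (33.3% beside 36.8%) were the others. No paired analysis was possible because each antibody has 1 pooled list, and leaving out a replicate or a stricter peak threshold was not run because the lists hold neither replicates nor scores. The depth behind summits is unknown, so a missing summit is not a lack of binding.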
